A study of Mus musculus and Homo sapiens with 40 samples.

Results

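Acetylation of histone H3 at lysine 27 (H3K27ac) was compared between untreated HPC-7 cells that expressed the p42 or the p30 isoform of the transcription factor CEBPA. The comparison used the pair of peak lists that the authors called on pooled ChIP-seq libraries, 1 list per cell line and 3 libraries per list. Peaks on chromosomes 1 to 19 and X were kept, which left 129345 of 129410 peaks in p42- and 139190 of 139264 peaks in p30-expressing cells. Peaks of the lists that overlapped by at least 1 bp were merged into 1 region. This gave 161115 regions from 268535 peaks, out of 957186 peaks in the 10 mouse lists of the series. A region was classed as shared, p42 only or p30 only by the lists that had a peak in it.

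HPC-7 cells are mouse hematopoietic progenitors that grow as a line and make very little CEBPA of their own. According to the methods, the lines were made with a retroviral vector that also carries GFP, and both isoforms were joined to ERT2, an estrogen receptor fragment that enters the nucleus with 4-hydroxytamoxifen. The methods give that drug to the cells before experiments, whereas the sample labels do not name it. Both untreated groups were grown with stem cell factor, and neither received bacterial lipopolysaccharide (LPS), which other libraries of both lines were given at 100 ng/mL for 2 h. Each isoform was studied in 1 transduced line, so cell line and isoform cannot be told apart.

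H3K27ac is deposited by the coactivators p300 and CBP and marks active promoters and enhancers. CEBPA binds DNA as a dimer through its C-terminal basic leucine zipper and drives granulocytic and monocytic differentiation. The p30 isoform is translated from an internal start codon. It keeps the DNA binding domain and lacks the N-terminal transactivation elements of p42, and it is the form that remains when N-terminal mutations of CEBPA truncate p42 in acute myeloid leukemia.

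Both lists carried the chromatin of a hematopoietic progenitor. All 10 progenitor markers examined, among them *Kit*, *Cd34*, *Gata2*, *Runx1* and *Ptprc*, had a promoter peak in both lists. Of 12 markers of other tissues, such as *Alb*, *Ins2* and *Myod1*, 0 had a promoter peak in either list. The lists covered 115 Mb in p42- and 122 Mb in p30-expressing cells, with median peak widths of 438 and 441 bp. Summits had a median fold enrichment over background of 3.35 and 3.19, as written by the peak caller. The read depth behind the lists is unknown and a pooled list has no replicate check, so no p-value is given. The 95% intervals cover counting error over regions or genes only. In bulk chromatin, fewer cells with a mark and less mark per cell cannot be told apart.

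The strongest distal regions of each class are shown first, because the comparison turns on what separates them. Each is the 200 bp around the summit of the best-ranked region outside promoters, on the plus strand of GRCm39. Capitals mark matches to any of 14 short binding sequences that are listed further on, and no line holds a match to the C/EBP sequence searched.
Spatc1, p42 only, chr15:76154213-76154412, capitals mark an ETS match: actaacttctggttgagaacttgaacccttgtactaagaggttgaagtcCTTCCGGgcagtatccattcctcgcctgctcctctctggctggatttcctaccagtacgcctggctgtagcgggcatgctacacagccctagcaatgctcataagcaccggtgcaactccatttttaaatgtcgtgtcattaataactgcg
Klb, p42 only, chr5:65514777-65514976, no match: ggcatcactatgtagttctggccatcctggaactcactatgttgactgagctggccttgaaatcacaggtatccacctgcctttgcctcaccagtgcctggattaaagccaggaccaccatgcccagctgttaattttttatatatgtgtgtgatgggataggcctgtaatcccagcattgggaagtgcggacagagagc
Rflnb, p42 only, chr11:75924471-75924670, capitals mark a GATA match: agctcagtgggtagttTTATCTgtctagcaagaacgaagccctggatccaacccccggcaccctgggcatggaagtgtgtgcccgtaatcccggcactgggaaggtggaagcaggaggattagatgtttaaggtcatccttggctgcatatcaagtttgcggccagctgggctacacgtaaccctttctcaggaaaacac
Sel1l, p30 only, chr12:92850722-92850921, no match: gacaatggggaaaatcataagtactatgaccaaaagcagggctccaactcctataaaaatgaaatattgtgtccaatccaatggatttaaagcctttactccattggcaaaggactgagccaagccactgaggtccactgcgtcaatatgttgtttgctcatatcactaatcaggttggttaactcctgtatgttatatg
Sel1l, p30 only, chr12:92857607-92857806, no match: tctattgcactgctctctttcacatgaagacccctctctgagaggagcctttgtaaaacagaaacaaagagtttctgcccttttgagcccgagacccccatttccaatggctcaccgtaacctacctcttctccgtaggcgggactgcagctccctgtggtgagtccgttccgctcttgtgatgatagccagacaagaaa
Car8, p30 only, chr4:7756152-7756351, capitals mark a RUNX and a GATA match: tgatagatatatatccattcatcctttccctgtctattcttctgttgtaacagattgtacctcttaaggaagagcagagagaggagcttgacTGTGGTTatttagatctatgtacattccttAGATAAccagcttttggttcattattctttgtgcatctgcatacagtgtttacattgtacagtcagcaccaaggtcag

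The H3K27ac summit lies on a nucleosome and a factor binds beside it, so 100 bp around the anti-CEBPA summit of p42-expressing cells were also read in the 6 best-ranked p42-only regions that hold such a summit. In 3 of the 6 this window held TTGCNNAA, the C/EBP core with its 2 free bases, on either strand. These windows were chosen after their values were seen and are printed with the core in capitals.
Rflnb, p42 only, chr11:75924715-75924814: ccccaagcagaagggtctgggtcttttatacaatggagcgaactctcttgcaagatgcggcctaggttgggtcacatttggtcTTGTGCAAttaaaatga
Hal, p42 only, chr10:93324464-93324563: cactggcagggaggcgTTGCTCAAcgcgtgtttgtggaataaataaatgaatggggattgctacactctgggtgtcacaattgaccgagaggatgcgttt
Lpp, p42 only, chr16:24018710-24018809: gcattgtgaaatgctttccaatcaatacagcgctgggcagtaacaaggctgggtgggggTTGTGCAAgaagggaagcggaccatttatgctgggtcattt

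The acetylated landscapes of the cell lines were largely common by sequence and less so by number of regions. Of the 161115 regions, 83955 (52.1%) were shared, 32731 (20.3%) were p42 only and 44429 (27.6%) were p30 only. The shared regions were wide, with a median of 888 bp, and held 90.9% of the sequence covered in p42- and 88.0% of that in p30-expressing cells. The regions of 1 line were narrow, with medians of 257 bp for p42 only and 270 bp for p30 only, and their sequence came to 10.4 and 14.6 Mb. Of 17415 regions of at least 2000 bp, 99.7% were shared, whereas 37 were p42 only and 13 were p30 only. Of 50959 regions under 300 bp, 9.04% were shared.

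Sharing followed the strength of a peak. Among the strongest 10% of peaks, ranked by the −log10 p within their list, 99.9% of the p42 peaks and 99.98% of the p30 peaks lay in a shared region. In the weakest 10% the shares were 46.3% and 34.3%. The median region of 1 line stood at 74.2% of the p42 list and at 73.8% of the p30 list, counted from the top. Only 8 p42-only and 3 p30-only regions ranked in the top 10% of their list. The surplus of p30-only regions was smaller with lists of equal length, but it remained in the count over all chromosomes. Chromosomes 1 and 17 then had 1.66 and 2.00 p30-only regions for each p42-only region. The other autosomes had 0.831 to 1.15 and chromosome X had 0.583, so the surplus was not present on every chromosome. With the best 129345 peaks of each list, 22.9% of regions were p42 only and 24.5% were p30 only, and requiring an overlap of at least 50% of both peaks raised these classes to 33.5% and 38.2% of the full lists.

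**Figure D1:**
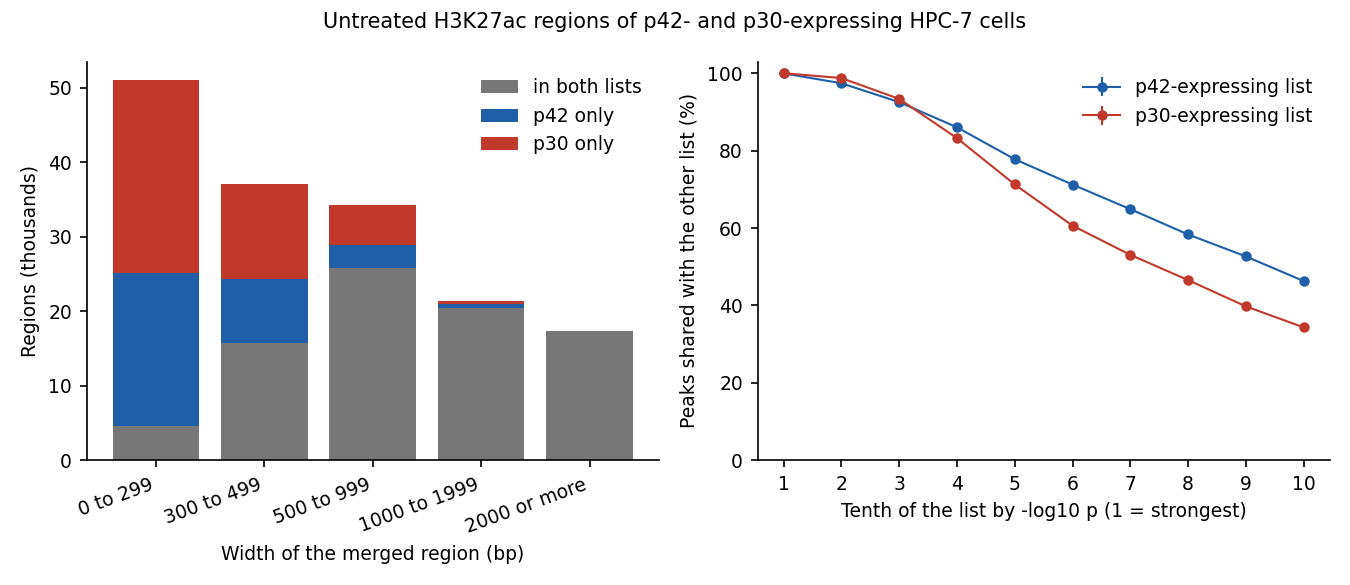
Left, the number of merged H3K27ac regions (axis in units of 1000) in 5 classes of region width (bp), stacked by whether the region was in both lists, p42 only or p30 only. Right, the share of peaks (%) that lay in a shared region for each 10% of the list, from the strongest by −log10 p, with 95% Wilson intervals smaller than the points; it falls from 99.9% to 46.3% in p42- and from 99.98% to 34.3% in p30-expressing cells.

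Regions of 1 line were mostly distal. Their summit lay in a promoter, taken as 1000 bp upstream to 100 bp downstream of a protein-coding start site, in 1.81% of p42-only and 1.26% of p30-only regions, against 6.80% of shared regions. Introns held 65.6% and 65.7% of them, and 58.7% of the shared regions. The median distance to the nearest protein-coding start site was 16532 bp for p42-only, 19919 bp for p30-only and 13789 bp for shared regions.

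The next question was whether CEBPA itself was bound where acetylation differed. The series holds CEBPA sites from other libraries of the same lines, 1 library each with an anti-CEBPA and with an anti-ER antibody, the latter against the ERT2 part. The anti-CEBPA lists held 47489 sites with p42 and 31823 with p30, and the anti-ER lists 23210 and 33952. CEBPA was found in regions acetylated only in p42-expressing cells far more often than in those acetylated only in p30-expressing cells. Here and below, a site was counted in a region if they overlapped by at least 1 bp, so its summit could lie outside. Anti-CEBPA summits read inside regions numbered 827 in p42-only and 7890 in shared regions with p42. With p30 they numbered 96 in p30-only and 6922 in shared regions. By overlap, an anti-CEBPA site of the own line lay in 2015 p42-only regions (6.16%, 5.90 to 6.42) and in 251 p30-only regions (0.565%, 0.499 to 0.639). This was a difference of 5.59 percentage points (5.33 to 5.86). With anti-ER, where the p30 list is the longer one, the shares were 5.05% (1654 regions) and 1.12% (497 regions), a difference of 3.93 points (3.68 to 4.19). A site in any of the 4 CEBPA lists lay in 8.10% of p42-only, 1.58% of p30-only and 18.4% of shared regions. Most regions of 1 line therefore had no CEBPA site in any of these lists.

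The contrast was largest among strong regions. Of the 347 p42-only regions in the top 20% of the p42 list, 247 (71.2%) held an anti-CEBPA site, against 27.3% of 24562 shared regions of the same rank, which is 43.9 points more (38.9 to 48.4). The same number, 247, held an anti-ER site, against 30.5% of the shared regions. Of the 181 p30-only regions in the top 20% of the p30 list, 4 (2.21%) held an anti-CEBPA site of the p30 line, against 21.0% of 26573 shared regions. With anti-ER these shares were 11.6% (21 regions) and 34.8%. Among the 100 best-ranked p42-only regions, 85 held an anti-CEBPA and 84 an anti-ER site of the p42 line. Among the 100 best-ranked p30-only regions, 0 held an anti-CEBPA site of either line and 13 held an anti-ER site of the p30 line. In the weakest 20% of the p42 list, 1.98% of p42-only and 1.14% of shared regions held an anti-CEBPA site of the p42 line.

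**Figure D2:**
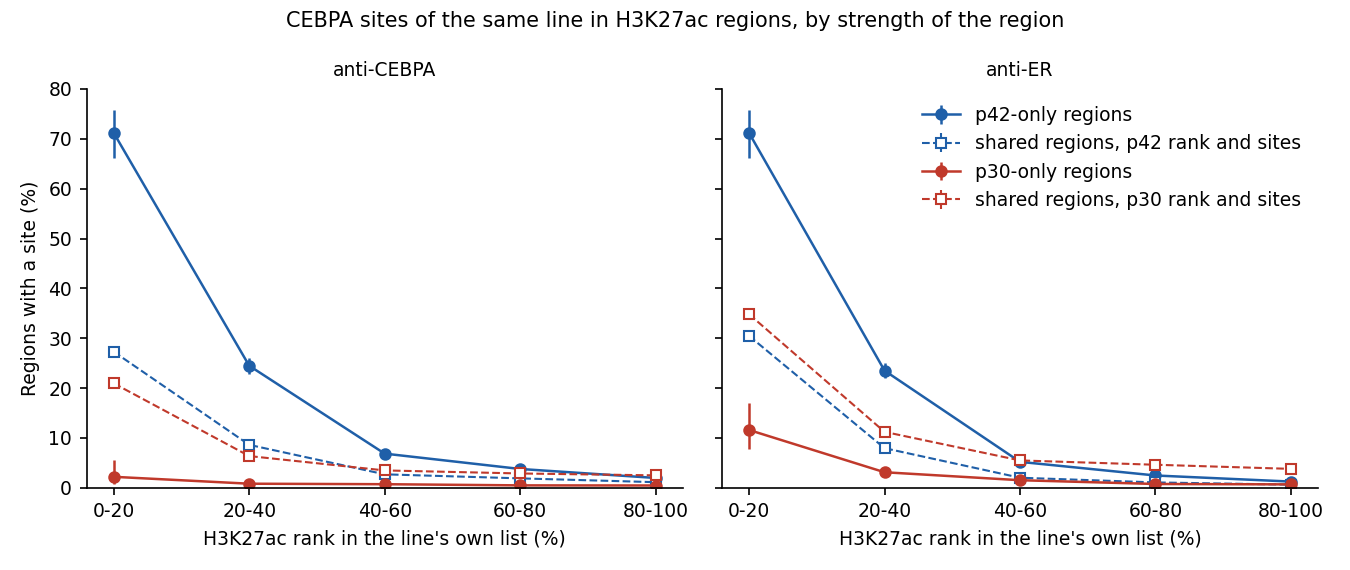
Share of H3K27ac regions (%) with a CEBPA site of the same cell line, by the region's H3K27ac rank in that line's list (steps of 20%, 0-20% is the strongest), for the anti-CEBPA (left) and anti-ER (right) antibody, with 95% Wilson intervals. In the strongest 20% the p42-only regions (filled blue) reach 71.2% with either antibody, above the shared regions (open squares), while the p30-only regions (filled red) stay at 2.21% and 11.6%, below them.

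Many p42-only regions with a CEBPA site of the p42 line overlapped a site of the p30 line as well. Overlap with the region was at least 1 bp for each line, so these need not be the same site. Of the 2015 p42-only regions with an anti-CEBPA site of the p42 line, 963 (47.8%, 45.6 to 50.0) also held one of the p30 line. With anti-ER this was 1189 of 1654 (71.9%, 69.7 to 74.0). Where both lines had a site whose summit lay in the region, it was ranked higher in p42-expressing cells in 81.5% of 352 p42-only regions, against 57.0% of 5538 shared regions and 69.2% (55.7 to 80.1) of 52 p30-only regions. The median fold enrichment of the site was 12.2 with p42 and 8.38 with p30. For the other antibody, anti-ER, the site ranked higher in p42-expressing cells in 62.9% of 502 p42-only regions, against 24.6% of 7884 shared regions and 25.4% of 63 p30-only regions. The part of CEBPA occupancy in the difference in acetylation was not tested.

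The DNA sequence beside the summits was then read for short binding sequences on both strands. The motifs were CEBP (TTGCGCAA or TTGCACAA), its mixed forms with other leucine zipper factors, CEBP:AP1 (TGTTGCAA) and CEBP:ATF4 (TGATGCAA), CRE (TGACGTCA), PU.1 (GAGGAAGT), ISRE (TTCNNTTTC), KLF (GGGTGTGG) and the NF-kB and CTCF consensus sequences. AP-1, the Fos and Jun dimer, was searched as TGACTCA, and the same letters in reverse order, ACTCAGT, served as a control. The sequence used for the wider ETS family was CCGGAAG, which shares GGAAG with PU.1. The blood factors of the GATA family were searched as AGATAA, and those of the RUNX family as TGTGGTT. The core TTGCNNAA includes both CEBP forms. At the anti-CEBPA summits of p42-expressing cells the core was found within 200 bp at 52.7% (49.3 to 56.1) of 827 sites in p42-only regions, 48.3% (47.2 to 49.4) of 7890 sites in shared regions and 50.6% of all sites, against 6.13% of distal H3K27ac summits.

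In 500 bp around distal H3K27ac summits, the CEBP sequence was present in 2.15% of p42-only regions (1.99 to 2.31), 1.15% of p30-only regions (1.05 to 1.25) and 1.63% of all distal regions. The difference between the classes of 1 line was 1.00 points (0.816 to 1.19), and 0.192 points (0.0909 to 0.299) with windows of 200 bp and 1.68 points with 1000 bp. In regions of the top 25% of their list it was present in 43 of 710 p42-only regions (6.06%, 4.53 to 8.06) and in 3 of 482 p30-only regions (0.622%, 0.212 to 1.81). AP-1 was present in 9.79% of p42-only and 9.24% of p30-only regions, and in 10.0% of all distal regions. That difference of 0.551 points (0.129 to 0.976) was 0.0816 (−0.188 to 0.354) with windows of 200 bp and 0.397 (−0.150 to 0.946) with 1000 bp, and the reversed control reached 9.56% and 9.34%. In regions with an own q-value under 1e-05 AP-1 was present in 10.8% of p42-only and 9.11% of p30-only regions, and the control in 9.17% and 9.22%. PU.1, the myeloid and lymphoid ETS factor, had its sequence in 6.90% of shared regions, 3.84% of p42-only and 4.55% of p30-only regions, with 5.59% of all. ETS was likewise more frequent in shared regions, at 3.94% against 2.03%, 2.17% and 3.04% of all. GATA was present in 23.2% of p42-only, 22.8% of p30-only and 20.7% of shared regions. RUNX, ISRE, KLF and CEBP:ATF4 differed by less than 1 point between the classes of 1 line. CEBP:AP1 was present in 1.58% of p42-only, 1.10% of p30-only and 1.33% of all distal regions, and NF-kB in 4.33%, 5.06% and 5.30%. CRE and CTCF were present in under 1% of each class, with 0.437% and 0.473% of all. The median GC content was 45.8%, 47.2% and 48.4% in p42-only, p30-only and shared regions, and its part in these shares was not tested.

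The best-ranked p42-only regions lay near a mixed set of genes, with innate immunity among them. The first stood at rank 7458 of the p42 list with a fold enrichment of 28.1, in an intron of *Spatc1* (chr15:76152882-76155798), a gene of sperm centrosomes. A pair of regions lay in introns of *Klb*, the coreceptor for FGF21, at chr5:65513061-65517078 and chr5:65510154-65512767, with ranks 7960 and 9506. Others lay 5943 bp upstream of *Rflnb*, a filamin regulator (chr11:75923538-75925595, rank 8077), and in an exon of *Hal*, histidine ammonia-lyase (chr10:93323092-93325985, rank 9811). One region was in the promoter of *Gda*, guanine deaminase (chr19:21418508-21419514, rank 11925). *Cd14*, the coreceptor that hands LPS to TLR4, had a p42-only region 13574 bp downstream of its start with rank 12494 and a fold enrichment of 13.3. The remaining ones lay 193782 bp from *Lpp*, 7138 bp from *Crygb* and 39434 bp from *Lrrk2*. All 10 held an anti-CEBPA and an anti-ER site in p42-expressing cells, 8 had an anti-CEBPA site with p30, and all 10 had an anti-ER site with p30. In the LPS libraries all 10 had an H3K27ac peak with p42 and 3 had one with p30.

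The best-ranked p30-only regions were narrower and farther from genes. The first, at chr12:92850542-92850957, was 416 bp wide and stood at rank 4686 of the p30 list with a fold enrichment of 20.8, 1034841 bp from the nearest protein-coding start, that of *Sel1l*. A further one lay beside it at chr12:92857444-92857988 with rank 11493. Their −log10 q values were 320 and 105, the latter at a fold enrichment of 8.75, where the *Il1r1* region named below had 52.7. The methods name no filter on regions of abnormal signal, and its part in these was not tested. Next came a 1779 bp region 482836 bp from *Car8*, a carbonic anhydrase-related protein (chr4:7755957-7757735, rank 12956). A region 11208 bp upstream of *Il1r1*, the signalling receptor for interleukin-1 (chr1:40252696-40253886), ranked 16433 with a fold enrichment of 8.75. Further ones were nearest to *S1pr1*, the sphingosine-1-phosphate receptor, *4930523C07Rik*, *Bmp2*, *Dyrk2* and *Car10*, with ranks from 16464 to 18149. None of the 10 held an anti-CEBPA site in either line, 4 held an anti-ER site of the p30 line, and in the LPS libraries all 10 had a peak in p30- and 5 in p42-expressing cells. For the first *Sel1l* region, peaks were present in both LPS and both H3K4me1 lists, so its absence was seen only in the untreated p42 list.

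Shared regions kept a similar order in both cell lines. The Spearman rho of the ranks was 0.81 over 83955 shared regions, a description only, since neighbouring regions are not independent. A rank at least 4 times better in 1 line, counted among shared regions, was found for 131 regions in favour of p42 (0.156%) and for 27 in favour of p30 (0.0322%). A region whose better rank lies past the first 25% cannot reach this ratio. Where the better rank lay in the first 10%, 39 of 9339 regions (0.418%) favoured p42 and 12 favoured p30. Between 10% and 25%, 92 of 14239 (0.646%) favoured p42 and 15 favoured p30. Just inside the threshold (within 0.01 on the log2 scale) lay 5 regions for p42 and 1 for p30, and just outside it 8 and 0.

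Of the 10 named regions ranked higher with p42, 2 lay near transcription factor genes. A region 5691 bp from the start of *Cebpe*, the C/EBP factor of late granulocyte maturation (chr14:54942264-54946089), ranked 1247 with p42 and 10981 with p30, with fold enrichments of 67.9 and 17.1. A region 3236 bp upstream of *Nfil3*, a bZIP repressor of immune cells (chr13:53138480-53141370), ranked 6148 and 54066, with 31.5 and 3.67. At *Sos2*, an exchange factor for Ras (chr12:69725866-69730960), the ranks were 173 and 2909 and the fold enrichments 126 and 46.6. In introns of *Emilin2* (chr17:71598618-71603787) and *Dlst* (chr12:85175022-85178393) the ranks fell from 9383 to 106336 and from 9837 to 104087. The other named regions were nearest to *Scaf8*, *Cep43*, *Sfi1*, *Mrpl45* and *Ermardl2*. Those of *Sfi1* and *Scaf8* had a −log10 q of 1218 and 982.4 at fold enrichments of only 15.1 and 25.1, and those of *Cep43* and *Ermardl2* had 1906 and 2005 at 107 and 81.3. The methods name no filter on regions of abnormal signal, and its part in these was not tested.

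The regions ranked higher with p30 included the interleukin-1 receptor locus again. In an intron of *Il1r1* (chr1:40300742-40303955) the rank was 6843 in p30- and 58607 in p42-expressing cells, with fold enrichments of 18.5 and 3.31, and the peak spanned 3214 and 742 bp. A region 40421 bp from *Ier5*, an immediate early response gene (chr1:154929872-154939045), ranked 917 and 7160, with 62.3 and 21.2. The promoter region of *Klf7*, a Krüppel-like factor (chr1:64160950-64162400), ranked 92 and 459. Regions near *Coro2a*, *Mtmr9*, *Gimap4*, *Mex3b*, *Slc35d3*, *Cd300ld3* and *Fgd2* completed this set, and of the 10, 0 held an anti-CEBPA site and 7 held an anti-ER site of the p30 line.

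CEBPA sites separated these sets as well. Of the 131 regions ranked higher with p42, 91.6% held an anti-CEBPA and 96.2% an anti-ER site of the p42 line, and 64.9% and 92.4% held those of the p30 line. Of the 27 ranked higher with p30, 3 held an anti-CEBPA site of the p42 line, 4 one of the p30 line, and 20 an anti-ER site of the p30 line. The LPS libraries, which the ranks did not use, kept these orders. Of the 112 regions of the p42 set present in both LPS lists, 111 ranked higher with p42 there, and the median log2 rank ratio was 1.65. Of 21 regions of the p30 set, 0 did, with a median of −1.29. Among 60208 other shared regions 50.1% did, with a median of 0.0009.

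**Figure D3:**
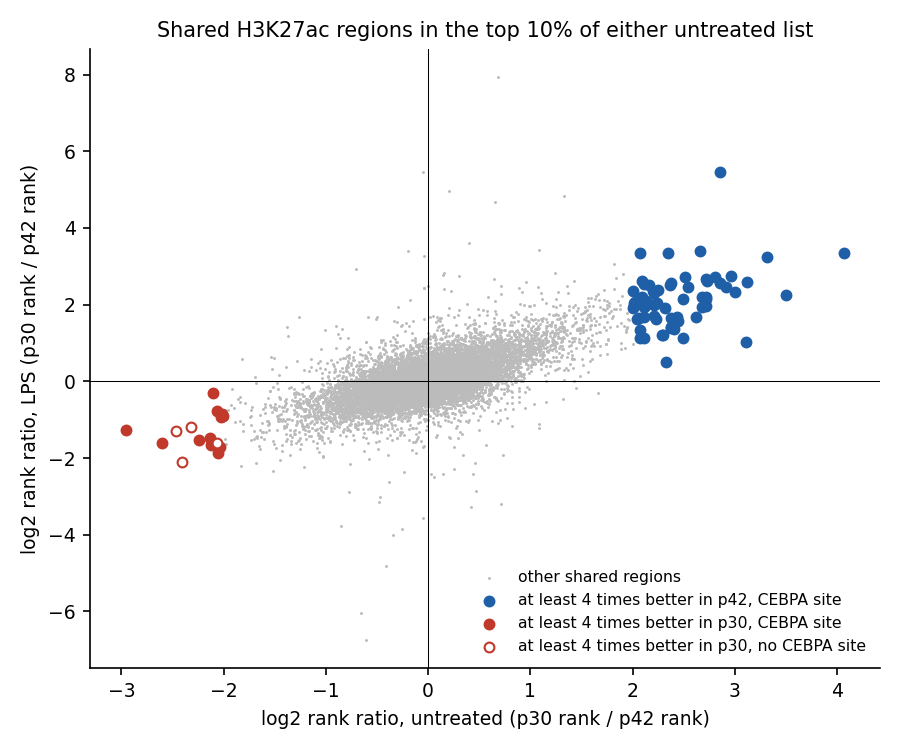
Log2 ratio of the rank in p30- to the rank in p42-expressing cells, untreated (horizontal) against LPS (vertical), for shared regions in the top 10% of either untreated list that are in both LPS lists; values above 0 rank higher with p42. Large points passed a 4-fold ratio in untreated cells, filled where any of the 4 CEBPA lists has a site; the 64 blue points all lie above 0 with LPS and the 16 red points all lie below 0.

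Presence in libraries that did not define the classes was read next. The p30-only regions were found again in the p30 line more often than in the p42 line, in 43.4% against 16.1% with LPS and in 33.9% against 21.7% for H3K4me1, the mark of primed and active enhancers. The differences were 27.3 points (26.8 to 27.8) and 12.2 points (11.8 to 12.5). Both p30 lists read are the longer ones, and with these lists cut to equal numbers the shares were 30.5% against 16.1% with LPS and 29.7% against 21.7% for H3K4me1, so the differences were 14.4 and 8.00 points. For the p42-only regions the order with LPS depended on the lists. They were found in 29.6% in p42 LPS and in 32.7% in p30 LPS, a difference of −3.15 points. The p30 LPS list is the longer one, with 142385 against 107114 peaks, and with only the LPS lists cut to equal numbers, a setting chosen after the data were seen, the shares were 29.6% and 21.4%, a difference of 8.22 points. With the untreated lists cut as well they were 30.3% and 22.5%, a difference of 7.85 points, whereas cutting the untreated lists alone gave −3.91 points. For p42-only regions with an own q-value under 1e-05 they were 49.9% and 41.0%. For H3K4me1 the shares of p42-only regions were 26.6% and 25.6%, or 26.6% and 22.0% with the H3K4me1 lists cut to equal numbers. In the top 20% of the lists, 98.0% of the p42-only regions were in the p42 LPS list and 37.8% in the p30 LPS list, and 95.03% of the p30-only regions were in the p30 LPS list and 36.5% in the p42 LPS list.

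Regions were next assigned to the nearest protein-coding start site, and the peak sequence of each gene was summed in each list. Of 21603 genes, 14086 were nearest to a region and 10681 had at least 2000 bp in 1 list. At least 1.5 times more sequence was found in p42-expressing cells for 760 of them (7.12%) and in p30-expressing cells for 1140 (10.7%), with a median ratio of p42 to p30 of 0.964. Of the p42 genes, 73.6% (70.3 to 76.6) had a region with an anti-CEBPA site of the p42 line, against 51.5% of the genes below 1.5-fold and 33.9% (31.2 to 36.7) of the p30 genes. Among genes with 1 to 4 regions these shares were 65.2%, 27.3% and 9.05%. With anti-ER in p42-expressing cells they were 67.9%, 30.7% and 9.55%. The LPS and H3K4me1 lists, cut to equal numbers, held more sequence in the p42 line for 85.2% and 77.3% of the p42 genes and for 7.11% and 10.9% of the p30 genes, beside 30.9% and 37.2% of all genes compared.

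Genes with the largest surplus of p42-only over p30-only regions included regulators of myeloid growth and granules. *Fndc3b*, a membrane protein of the endoplasmic reticulum, had 58 p42-only and 3 p30-only regions, and *Atp8b4*, a phospholipid flippase, had 47 and 0, with 70338 bp of peak sequence in p42- and 36499 bp in p30-expressing cells. *Gfi1*, a repressor needed for granulocyte differentiation, had 25 and 2 regions, with 33848 and 15548 bp. *Lyst*, a regulator of lysosome and granule size, had 31 and 6. *F13a1*, a coagulation factor subunit of monocytes and megakaryocytes, had 35 and 6, and *Myc*, the growth regulator, had 39 and 12 in the desert around it. *Sipa1l1*, *Rapgef2*, *Sp3* and *Gng12* had 45 and 7, 34 and 6, 31 and 5, and 27 and 4. In all, 99 genes had at least 10 more p42-only than p30-only regions, and 462 had at least 10 more p30-only regions.

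The 10 genes of the reverse set were between 81.1 and 663.9 kb long, and those of the p42 set between 5.00 and 295.2 kb. *Trappc9*, a subunit of a vesicle trafficking complex, had 88 p30-only and 8 p42-only regions, with 175134 and 106432 bp of peak sequence. *Snx29*, a sorting nexin, had 73 and 14, *Cdkal1*, a tRNA-modifying enzyme, had 60 and 3, and *Btbd9* had 53 and 1. *Slco3a1*, *Cep170*, *Sash1*, *Aff3*, *Trerf1* and *Zfand3* had between 50 and 61 p30-only and between 4 and 16 p42-only regions. In LPS lists of equal peak number *Cdkal1* held 104237 bp in p30- and 34044 bp in p42-expressing cells, and *Atp8b4* held 51808 and 84859 bp.

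Some inflammatory genes carried more acetylated sequence in p42-expressing cells. Of 23 cytokine and chemokine genes compared, 8 reached 1.5-fold more in p42- and 0 in p30-expressing cells, against 7.12% and 10.7% of all genes. At any size 14 of the 23 had more sequence with p42, against 4624 of 10681 genes compared. The median ratio was 1.17 against 0.964. The neutrophil chemokine *Cxcl2* had 4706 bp in p42- and 955 bp in p30-expressing cells (ratio 4.93), and its neighbours *Cxcl3* and *Cxcl1* had ratios of 3.40 and 2.55. *Il12b* had 3491 and 1315 bp and *Il1b*, the gene of interleukin-1 beta, had 3489 and 1509 bp. *Ccl2*, *Ccl6* and *Il23a* had ratios of 2.16, 1.94 and 1.53. All 8 had a region with an anti-CEBPA and with an anti-ER site of the p42 line, and all 8 held more sequence in the p42 line in the LPS and in the H3K4me1 lists, read with equal peak numbers. With all peaks within 50 kb of the gene instead of the nearest regions, *Il23a* (0.968), *Ccl6* (1.22) and *Cxcl3* (1.41) no longer reached 1.5-fold.

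Other members of this list differed little. *Tnf*, on chromosome 17, had 4181 bp in p42- and 4540 bp in p30-expressing cells, with promoter ranks of 1885 and 1954. *Il6* had 20861 and 17180 bp and *Ccl3* 15944 and 13713 bp. *Cxcl10*, an interferon-induced chemokine, had 769 and 339 bp and stayed under the 2000 bp limit. Among genes over that limit the lowest ratios were those of *Ccl17* (0.821), *Lta* (0.839), *Il12a* (0.854) and *Il10* (0.878), and under it *Ccl22* had 336 and 1311 bp and *Csf2* had 0 and 367 bp.

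Genes of LPS sensing showed the same direction. Of 20 compared, 5 reached 1.5-fold more with p42 and 0 with p30, against 7.12% and 10.7% of all genes. The median ratio was 1.14. *Cd14* had 16581 and 5009 bp, 3 p42-only regions, and a promoter peak at rank 2967 in p42- and 14017 in p30-expressing cells. *Tlr6* and *Tlr4*, Toll-like receptors, had ratios of 2.29 and 1.95, *Map3k7*, the kinase TAK1, had 1.64, and *Irak3*, an inhibitor of the pathway, had 1.52, or 1.21 within 50 kb. *Irak1*, *Nod1*, *Ticam2* and *Traf6* had the lowest ratios, from 0.708 to 0.775. In lists of equal peak number, 3 of the 5 also had more sequence in the p42 line with LPS and 4 for H3K4me1. *Cd14* had 17085 and 7962 bp with LPS and 10792 and 3412 bp for H3K4me1, whereas *Tlr6* had a ratio of 0.959 with LPS and *Map3k7* had 0.935 with LPS and 0.762 for H3K4me1.

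Few transcription factor genes of the inflammatory response passed 1.5-fold. None of 15 NF-kB genes reached 1.5-fold in either direction, with ratios between 0.747 for *Relb* and 1.38 for *Ikbkg*. Of 16 AP-1 genes 1 did in each direction, near the 7.12% of all genes with p42. The difference between these lists and the cytokine list was not tested. *Maf*, a large Maf factor, had 19767 and 37199 bp (0.531). *Fos* had 25486 and 20487 bp with promoter ranks of 1201 and 1278, and *Jun* had 34797 and 37144 bp. *Fosl1*, under the 2000 bp limit, had 4 p42-only regions with 1748 bp in p42- and 0 bp in p30-expressing cells, and 1427 and 0 bp with LPS. Of 11 C/EBP, ATF4 and Tribbles genes only *Nfil3* reached 1.5-fold, with 11273 and 4937 bp. *Cebpa* had a ratio of 0.766, *Cebpb* of 1.08, *Cebpe* of 1.37 and *Atf4* of 1.06.

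Stress genes and granule genes leaned to p42 in a few members. Among all genes compared, 7.12% reached 1.5-fold more in p42- and 10.7% in p30-expressing cells. Of 16 stress and growth arrest genes, 3 did so with p42 and 0 with p30. These were *Xbp1*, a factor of the unfolded protein response (15626 and 9663 bp), *Gadd45a* (12234 and 7594 bp) and *Gadd45b* (8301 and 5510 bp), of which *Xbp1* (1.43) and *Gadd45b* (1.23) lost the 1.5-fold within 50 kb. With LPS 2 of the 3 had more sequence in the p42 line and for H3K4me1 1 had, with ratios for *Gadd45b* of 0.803 and 0.841 and for *Gadd45a* of 0.796 in H3K4me1. Of 16 neutrophil granule and myeloid effector genes, 4 reached 1.5-fold with p42 and 0 with p30. At any size 13 of the 16 had more sequence with p42, against 4624 of 10681 genes compared. *Ngp*, a neutrophil granule gene, went the other way with 6141 and 8361 bp, and ratios of 0.633 with LPS and 0.779 for H3K4me1. *Camp*, the cathelicidin peptide, had 6302 and 1124 bp and a promoter peak at rank 14832 in p42- and none in p30-expressing cells. *Lcn2*, lipocalin of the specific granules, had 2012 and 174 bp and a promoter peak at rank 21640 and none. Its ratio of 11.6 was 1.13 within 50 kb, where peaks of other genes count. *Lyz2* had a ratio of 1.91, and *Ltf* had 1.52, or 0.993 within 50 kb. *S100a8*, a calprotectin subunit, had 1810 bp in p42-expressing cells and 0 bp in p30-expressing cells, under the limit. Promoter peaks were present for 18 of the 24 listed genes in p42- and for 14 in p30-expressing cells. *Mpo* had 28244 and 24114 bp, with promoter ranks of 2137 and 5850.

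**Figure D4:**
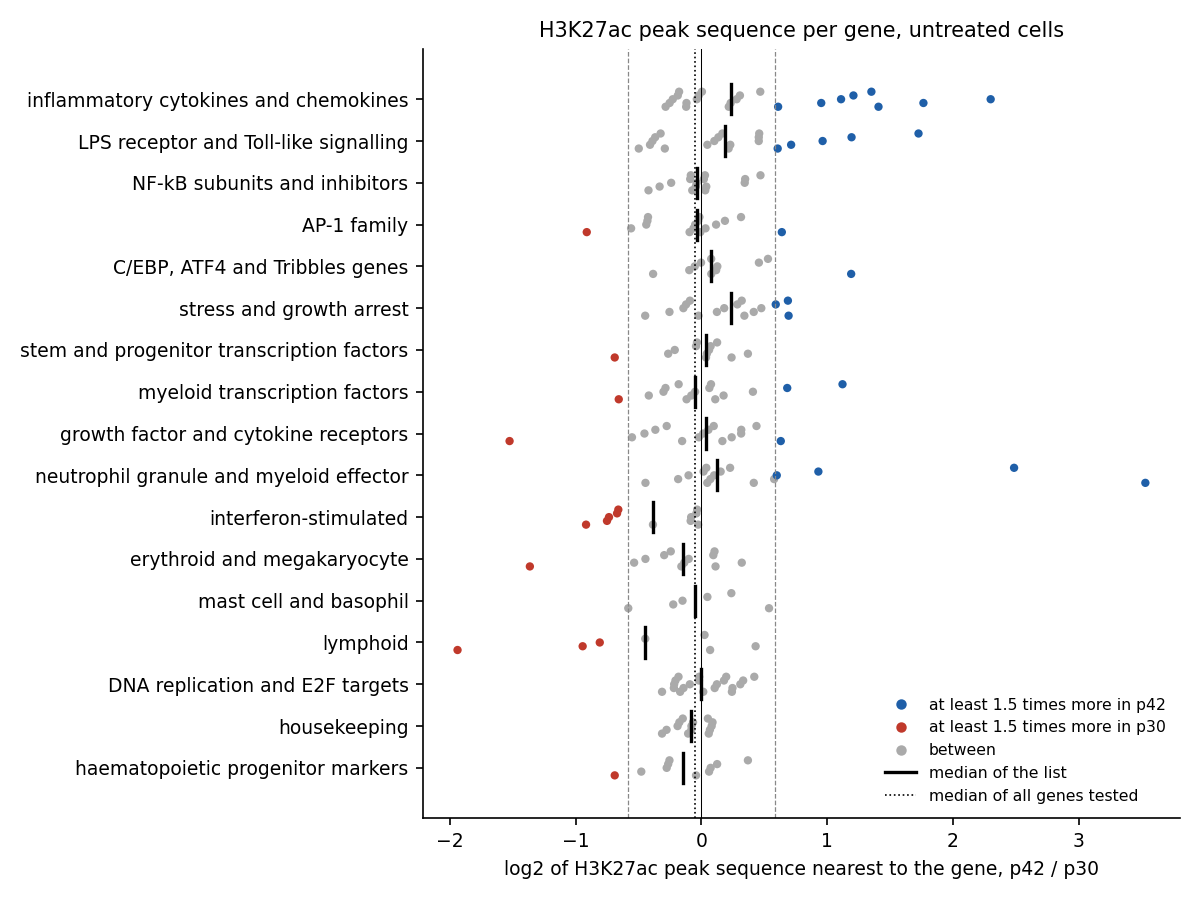
Log2 ratio of H3K27ac peak sequence nearest to each gene, p42- over p30-expressing cells, for 17 gene lists; each point is a gene with at least 2000 bp in 1 list, thick bars are list medians and the dotted line is the median of all genes compared. Dashed lines mark 1.5-fold; 8 inflammatory and 5 LPS sensing genes lie to the right of them and none to the left, and 5 interferon-stimulated genes lie to the left and none to the right.

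Interferon-stimulated genes went the other way. Of 11 compared, 5 reached 1.5-fold more in p30- and 0 in p42-expressing cells, against 10.7% and 7.12% of all genes. At any size 0 of the 11 had more sequence with p42, against 4624 of 10681 genes compared. With equal peak numbers *Stat2* had 1.09 times more with p42. The median ratio was 0.766. *Oas3*, a sensor of double-stranded RNA, had 1926 bp in p42- and 3639 bp in p30-expressing cells, *Usp18*, the protease that removes ISG15, had 6701 and 11279 bp, *Irf9*, the DNA-binding subunit of ISGF3, had 4102 and 6829 bp, *Mx1* had 6834 and 10882 bp and *Ifih1* had 4486 and 7094 bp. *Irf9* had a promoter rank of 2054 in p30- and 3950 in p42-expressing cells. *Irf9* (0.943) and *Usp18* (0.752) did not reach 1.5-fold within 50 kb, where *Rsad2* (1.51) and *Isg15* (1.52, under the 2000 bp limit before) reached it with p42. All 5 held more sequence in the p30 line with LPS at equal peak numbers, where 30.9% of all genes compared had more in the p42 line. Of the 5, 0 had a region with an anti-CEBPA site of the p30 line and 2 had one with an anti-ER site of that line. Of the 1140 p30 genes, 32.7% and 47.9% had one.

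Lineage genes gave a mixed picture. Of all genes compared, 7.12% reached 1.5-fold with p42 and 10.7% with p30. The single members that did so among stem and progenitor factors (8.33%), receptors (6.25% in each direction) and erythroid and megakaryocyte genes (8.33%) were near these shares. *Meis1*, a stem cell factor of the HOX program, had 45852 bp in p42- and 73958 bp in p30-expressing cells, with 5 p42-only and 42 p30-only regions, and was the only one of 12 stem and progenitor factors to reach 1.5-fold. Among 15 myeloid factors, *Gfi1* (2.18) and *Tfec* (1.61) reached it with p42 and *Id2*, an inhibitor of basic helix-loop-helix factors, with p30 (34535 and 54484 bp). Among 16 receptors, *Csf2ra*, a GM-CSF receptor subunit, had a ratio of 1.55 and *Il1r1* had 6494 and 18704 bp (0.347). Of 7 lymphoid genes 3 reached 1.5-fold with p30 and 0 with p42. These were *Dntt*, the terminal transferase (867 and 3327 bp), *Cd79b* (2105 and 4052 bp) and *Lck* (2163 and 3789 bp), and only *Dntt* kept it within 50 kb. Of 12 erythroid and megakaryocyte genes *Treml1* had 2839 and 7311 bp, or a ratio of 0.874 within 50 kb. The 6 mast cell genes, 20 E2F and replication genes and 14 housekeeping genes had 0 members past 1.5-fold in either direction. Among the 12 markers of other tissues, only *Cdh1* was nearest to a region, with 2530 and 440 bp.

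Over all lists, 233 genes were compared, of which 26 (11.2%) reached 1.5-fold with p42 and 13 (5.58%) with p30, against 7.12% and 10.7% of all genes. All 26 had a region with an anti-CEBPA and with an anti-ER site of the p42 line. Within 50 kb 17 kept the fold, and 22 had more sequence in the p42 line with LPS and 21 for H3K4me1. Equal peak numbers remove only p30 peaks, so that setting could not take the fold from a p42 gene. Of the 13, 4 had an anti-CEBPA and 6 an anti-ER site of the p30 line, near the 32.7% and 47.9% of the 1140 p30 genes. All 13 kept the fold with equal peak numbers and 8 within 50 kb. With LPS 13 had more sequence in the p30 line, and for H3K4me1 12 had. Of all genes compared, 30.9% and 37.2% had more sequence in the p42 line in the LPS and H3K4me1 lists.

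The classes were not spread evenly along the genome. On chromosome 17 there were 2.55 p30-only regions for each p42-only region and on chromosome 1 there were 2.11, against 1.09 to 1.47 on the other autosomes and 0.756 on chromosome X. With equal peak numbers these values were 2.00, 1.66, 0.831 to 1.15 and 0.583. The untreated p42 list stood apart from the others here. Chromosome 1 held 7.85% of its peaks, against 8.75% in the untreated p30 list, 8.98% and 8.44% in the p42 and p30 LPS lists and 9.61% and 9.54% in the H3K4me1 lists. Chromosome 17 held 5.73%, against 6.30%, 6.74%, 6.24%, 6.22% and 6.12% in the same order. This pattern was thus not found in the p42 line with LPS.

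**Figure D5:**
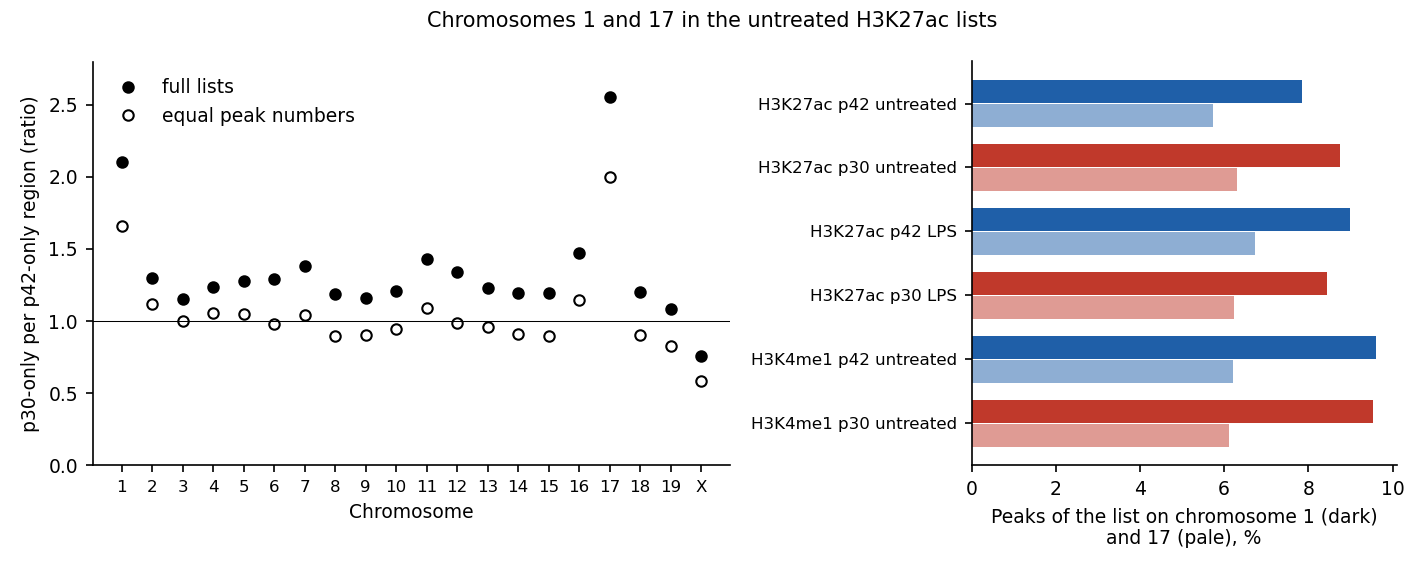
Left, number of p30-only regions per p42-only region on each chromosome, with the full lists (filled) and with equal peak numbers (open); chromosomes 1 and 17 reach 2.11 and 2.55. Right, share of the peaks of the 6 histone mark lists (%) on chromosome 1 (dark) and 17 (pale); among these the untreated p42 H3K27ac list has the lowest shares, 7.85% and 5.73%.

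Of the regions and genes named above in favour of p30, *Il1r1*, *Ier5*, *Klf7*, *4930523C07Rik*, *Cep170* and *Aff3* lie on chromosome 1, and *Fgd2*, *Btbd9*, *Zfand3*, *Trerf1* and *Treml1* lie on chromosome 17. Without these chromosomes, a setting chosen after the data were seen, 21.3% of regions were p42 only and 26.8% were p30 only, and 7.58% and 9.56% of genes reached 1.5-fold with p42 and p30. The difference in anti-CEBPA sites was then 5.58 points. This setting was run with the full lists only, so the surplus of p30-only regions without these chromosomes was not tested at equal peak numbers. What set the counts on chromosomes 1 and 17 was not tested.

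At a finer scale, 1479 bins of 1 Mb held at least 20 regions, of which 967 had more p30-only and 458 more p42-only regions. The most uneven bins in favour of p42 were at chr3:27000001-28000000 around *Fndc3b* (99 p42-only and 24 p30-only regions), chr2:72000001-73000000 around *Sp3* (72 and 24) and chr9:88000001-89000000 around *Nt5e* (48 and 6). Those in favour of p30 were at chr17:30000001-31000000 around *Zfand3* (127 p30-only and 22 p42-only regions), chr17:47000001-48000000 around *Trerf1* (119 and 38) and chr16:11000001-12000000 around *Snx29* (105 and 26).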

How the data were processed

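H3K27ac was measured by ChIP-seq in 6 untreated HPC-7 libraries, 3 per cell line, each with input chromatin. According to the methods, the authors trimmed reads with TrimGalore 0.6.6, aligned them to mm39 (GRCm39) with Bowtie2 2.4.4, excluded duplicates with Picard and called narrow peaks with MACS2 2.2.5 against input on pooled replicates, at a q-value of 0.05. The deposited lists give a fold enrichment (a ratio over the local background) at the summit and the −log10 of a p-value and of a q-value, as the authors' caller wrote them. Fold and −log10 values move with depth, which the lists do not give, so lists were compared by rank, and fold values set side by side for both lines are those of each list, not scaled to each other. Peak numbers also move with depth, so the main shares were repeated with equal peak numbers. CEBPA sites by rank, in both lines and per gene, their strength, the totals of genes by surplus and the bins were read in the full lists only.

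Samples were grouped by their labels, and 0 columns of per-sample values were without a sample. The authors' own test on read counts was not used. Regions were merged at 1 bp overlap and given the nearest protein-coding start site of GENCODE M39. Ranks followed the −log10 p of a region's strongest peak, and rank ratios were taken among shared regions. Shares carry 95% Wilson intervals (Newcombe for differences between classes, paired for differences between lists), and no test was made. The members, the 18 gene lists (320 genes) and the alternatives were chosen with earlier results of these data known.

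Named were the 10 best-ranked regions of 1 line, the 10 largest rank ratios in each direction among shared regions in the top 10% of either list, the 10 genes with the largest surplus in each direction, up to 4 members per list and direction, *Fos*, *Jun*, *Cebpa*, *Cebpb*, *Cebpe*, *Cxcl10* and *Gadd45a*, which the study discusses, and the 3 most uneven chromosomes and bins. A region and a gene that this rule names are not reported here. Other list members and the core TTGCNNAA were named after their values were seen. Tested on simulated lists, all 24223 regions planted as p42 only and all 36057 as p30 only were recovered among 59899 shared ones. Alternatives were stricter q-values, other overlaps, windows, rank measures and gene assignments. The scripts ran on Python 3.11.15 with scipy 1.17.1, numpy 2.4.6 and pandas 2.3.3, and figures were drawn with matplotlib 3.10.9.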

Additional observations from a re-analysis of the deposited data

How the results depend on the processing

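Values are given for the classes of 1 line, for their presence in other lists (own line minus other line), for CEBPA sites, promoters and sequences (p42-only minus p30-only, all in percentage points), for rank shifts and for genes. No paired analysis was possible because each group is 1 pooled list, although the labels number the libraries R1 to R3 in both groups, and for the same reason no replicate could be left out. The direction of every value was the same under every alternative run, except LPS presence of p42-only regions, which went from −3.15 to 8.22 with only the lists read cut to equal numbers (chosen after seeing the data), to 7.85 with the untreated lists cut as well and to 8.82 for regions with an own q-value under 1e-05. With equal peak numbers in the untreated lists, p30-only and p42-only regions were 24.5% and 22.9%, LPS presence was 29.1 for p30-only and −3.91 for p42-only regions, H3K4me1 presence of p30-only regions was 12.6, and 8.22% and 9.501% of genes passed for p42 and p30. With q-values under 1e-05 in both lists these were 22.8% and 20.7%, 35.3 and −0.777 (−1.66 to 0.102), and 13.4, with H3K4me1 presence of p42-only regions at 3.09, anti-CEBPA at 10.1, anti-ER at 8.12, CEBP at 1.44, AP-1 at 1.12, rank shifts for p42 at 0.0965% and genes for p42 at 9.87%. With the own q-value under 1e-05 and no peak in the other list, p30-only and p42-only regions were 6.73% and 6.004%, LPS presence of p30-only regions was 41.0, H3K4me1 presence 5.40 for p42-only and 16.8 for p30-only regions, anti-CEBPA 13.5, anti-ER 10.6, promoters 1.15, CEBP 1.97 and AP-1 1.65. Merging peaks within 500 bp gave 24.9% p30-only and 16.4% p42-only regions, and reciprocal overlap of 50% gave 38.2% and 33.5%. With equal numbers in the untreated lists and the lists read, LPS presence of p30-only regions was 15.9, H3K4me1 presence 4.38 for p42-only and 8.32 for p30-only regions, and anti-CEBPA 4.05. With only the lists read cut these were 14.4, 4.58 and 8.00, and 4.20, with anti-ER at 4.37. Promoters within 2500 bp gave 1.56. Windows of 200 bp gave 0.192 for CEBP and 0.0816 (−0.188 to 0.354) for AP-1, and windows of 1000 bp gave 1.68 for CEBP. Ranking by fold enrichment gave 0.0679% for p30. Peaks within 50 kb of the gene gave 4.65% and 6.58% of genes for p42 and p30, and a fold of 2 gave 2.38% and 3.53%. Leaving chromosomes 1 and 17 out of the full lists was a setting chosen after seeing the data. There p30-only and p42-only regions were 26.8% and 21.3%, LPS presence of p30-only regions was 28.6, and 9.56% of genes passed for p30. The cause of these changes was not tested.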
